A study of Mus musculus with 8 samples.

Results

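The genes described here are 9 junction genes of the blood-testis barrier, *Cldn3*, *Cldn11*, *Ocln*, *F11r*, *Jam3*, *Cxadr*, *Tjp1*, *Cdh2* and *Gja1*, picked by symbol out of the 40840 genes counted in testes of 12-day-old (P12) mice. Each symbol matched 1 row in the table of every mouse. The question was whether the levels of these genes differed between wild type mice and mice lacking the poison exon of *Tra2b* in their germ cells. A poison exon is an exon whose inclusion in the mRNA introduces early stop codons, and *Tra2b* encodes a splicing factor.

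The groups were 4 wild type and 4 *Tra2b-cPEko* mice, lettered A to D in each genotype, and the RNA came from whole testes. Per the study's methods, the wild type controls carried 1 allele of *Tra2b* with the poison exon flanked by loxP sites, the conditional knockout mice carried a floxed allele over a deleted allele together with Vasa-Cre, and the labels give a C57/BL6 background. The Vasa-Cre transgene is active in germ cells, so it does not act in the Sertoli cells that build the barrier, which in *Tra2b-cPEko* mice have 1 inherited deleted allele and 1 intact floxed allele. In whole testis a change in the number of Sertoli cells and a change in RNA per Sertoli cell cannot be told apart.

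The blood-testis barrier is made by neighbouring Sertoli cells, which are joined near the base of the seminiferous tubule by tight junctions, by cadherin-based adhesion at the actin-rich ectoplasmic specialization, and by gap junctions and desmosomes. It divides the tubule into a basal compartment with spermatogonia and an adluminal compartment in which meiosis proceeds, and it is assembled in mice while the first wave of germ cells enters meiosis. Claudins and occludin span the membrane at tight junctions, junctional adhesion molecules bind neighbouring cells through immunoglobulin-like domains, and ZO proteins tie these to actin.

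*Tra2b* itself had between 156 and 176 CPM (counts scaled to the same library total, corrected by edgeR's TMM factors) in wild type and between 190.3 and 209 CPM in *Tra2b-cPEko* testes. Although these values do not overlap, edgeR did not call *Tra2b* (log2 fold change 0.27, edgeR adjusted p = 0.0552), whereas DESeq2 did (adjusted p = 0.000195). Counts per gene do not show the deleted exon. *Tra2a*, the paralogue of *Tra2b*, was at 129 ± 15.3 CPM in wild type against 69.5 ± 3.36 CPM in *Tra2b-cPEko* testes (SD, n = 4). Between 36757386 and 59101569 reads of each mouse fell on genes. Sertoli cell markers were present in every library, with a summed level of 13 markers of 6246 to 6689 CPM in wild type and 6282 to 7030 CPM in *Tra2b-cPEko* mice, and edgeR and DESeq2 gave none of the 13 an adjusted p under 0.05. Most of each sum was *Clu*, at 3396 to 4049 CPM. Singly, 6 markers had a positive and 7 a negative log2 fold change, from -0.37 (*Amh*) to 0.26 (*Trf*). *Aard* was lower in all 4 *Tra2b-cPEko* mice than in any wild type mouse (edgeR adjusted p = 0.352).

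All 9 junction genes passed the filter on low counts. By edgeR none was called, where a call is a p under 0.05 in edgeR's quasi-likelihood test after adjustment by Benjamini and Hochberg's method over the 19104 genes tested. Of all genes tested 0.157% were called, 0.131% as higher and 0.0262% as lower in *Tra2b-cPEko* testes. Limma-voom called 0 of the 9, and DESeq2, which called 2.79% of all genes, called 0 of the 8 that it gave an adjusted p. No member had an unadjusted p under 0.05, against 15.3% of all genes, and for none did the 4 values of one genotype lie wholly above or below those of the other, against 8.54% of all genes. The median log2 fold change of the 9 genes, *Tra2b-cPEko* over wild type, was 0.03, beside -0.0011 for all genes, and 8 of the 9 lay within 0.2 of 0 on the log2 scale. The exception was *Cldn3*, which was high in a single mouse. The sums of 7 macrophage markers, 111 to 134.5 CPM in wild type and 134.6 to 164 CPM in *Tra2b-cPEko* mice, were barely apart. For none of the 7 genes singly were the genotypes without overlap. Of these markers edgeR called none, with 5 at an unadjusted p under 0.05, and DESeq2 called 2, *Cx3cr1* (adjusted p = 0.0256) and *Csf1r* (adjusted p = 0.0400), as higher. Their part in the levels of the junction genes was not tested.

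**Figure D1:**
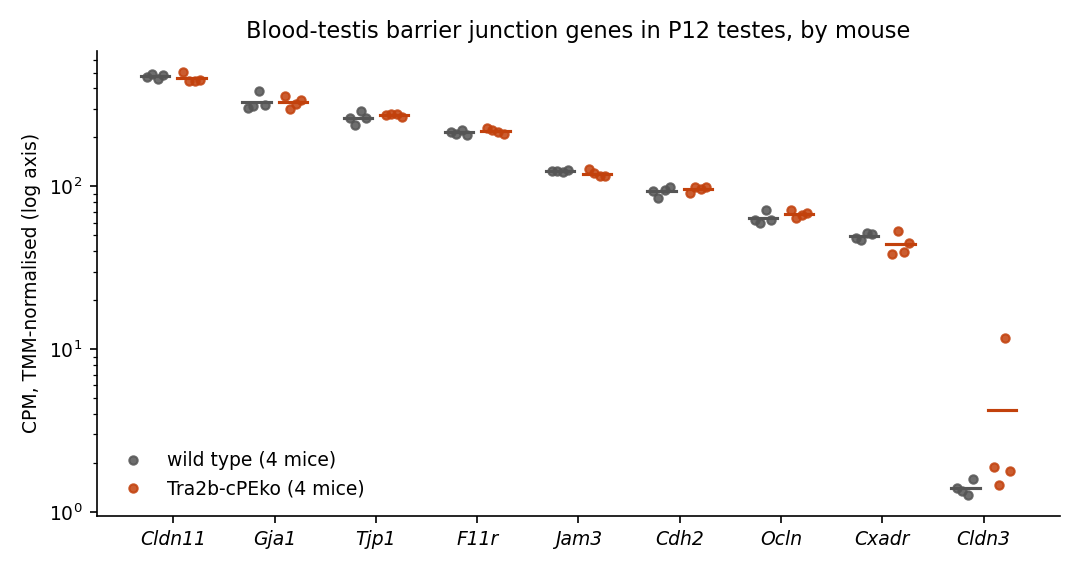
CPM of the 9 junction genes (logarithmic axis) in each of 4 wild type (grey) and 4 *Tra2b-cPEko* (orange) mice, with the mean of each genotype as a line. The genotypes overlap for every gene, and 1 *Tra2b-cPEko* mouse stands apart for *Cldn3*, at 11.7 CPM.

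Levels were compared between genes after division by the length of the exons of each gene (union of GENCODE vM39 exons). This union takes in every annotated exon, 18.0 kb for *Gja1* with 19 transcripts and 1.26 kb for *Cldn3* with 1, so the order depends on the annotation. Before the division *Gja1*, at 329 CPM in wild type, was above *Tjp1* at 264 CPM and *F11r* at 215 CPM. *Cldn11*, the claudin that forms the tight junction strands of Sertoli cells, had the highest level, 193 ± 5.73 CPM per kb in wild type (SD, n = 4). *F11r* followed at 62.0 ± 2.13 CPM per kb and *Tjp1* at 33.3 ± 2.79 CPM per kb. *Gja1*, at 18.3 ± 2.16 CPM per kb, and *Jam3*, at 18.2 ± 0.226 CPM per kb, had overlapping values. They were the only neighbours in this order that overlapped in wild type. Below them came *Cdh2* at 10.8 ± 0.735, *Ocln* at 6.82 ± 0.568, *Cxadr* at 4.56 ± 0.226 and *Cldn3* at 1.12 ± 0.112 CPM per kb. The level of *Cldn11* per kb was thus 172 times that of *Cldn3*. *Cldn3* overlaps *Wbscr25* on the other strand, and how reads of the overlap were counted is not stated, so this ratio is uncertain. *Tra2b-cPEko* testes showed the same order, and there the ranges of *Gja1* and *Jam3* and those of *Cxadr* and *Cldn3* overlapped.

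The sequences around the start sites of *Cldn11* and *Cldn3*, the members with the highest and the lowest level per kb, are shown because they are of the same family and lie at the ends of this order. Each window runs from 250 bases before to 50 bases after the RefSeq start of the gene, on its own strand. They are RefSeq windows from a table built on GRCm38.p6, and each was found once in GRCm39, at chr3:31203819-31204118 (plus strand) for *Cldn11* and chr5:135014818-135015117 (plus strand) for *Cldn3*. Capitals mark GGGCGG, the core of a GC box, and CCAAT, each searched on both strands, where they read CCGCCC and ATTGG.
Cldn11: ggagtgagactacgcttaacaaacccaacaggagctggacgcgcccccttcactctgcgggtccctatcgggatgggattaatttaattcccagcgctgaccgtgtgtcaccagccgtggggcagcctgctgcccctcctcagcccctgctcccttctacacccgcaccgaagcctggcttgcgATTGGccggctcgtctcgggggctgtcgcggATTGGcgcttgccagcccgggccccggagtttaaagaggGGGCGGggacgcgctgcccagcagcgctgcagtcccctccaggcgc
Cldn3: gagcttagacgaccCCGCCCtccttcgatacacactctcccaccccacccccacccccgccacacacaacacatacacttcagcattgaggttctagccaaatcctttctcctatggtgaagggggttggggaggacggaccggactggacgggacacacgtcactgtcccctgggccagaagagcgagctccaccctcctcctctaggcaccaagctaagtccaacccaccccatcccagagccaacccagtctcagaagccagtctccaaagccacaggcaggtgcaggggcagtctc

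The *Cldn11* window holds 24 CpG pairs, 1 GGGCGG and 2 CCAAT matches, whereas that of *Cldn3* holds 9 CpG pairs, 1 GGGCGG and no CCAAT match. Of 32534 windows of the same length, 35.9% hold GGGCGG and 37.4% hold CCAAT. The table has windows for 6 of the 9 genes, and TATAAA, found in 13.6% of all windows, is in none of them. These matches describe the letters of the windows, and the counts do not bear on any factor that may bind there.

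Among the claudins, *Cldn11* (GRCm39 chr3:31203900-31218495, plus strand) differed little between the genotypes. Its level was 471, 488, 457 and 483.5 CPM in wild type mice A to D and 505, 446, 441 and 449 CPM in *Tra2b-cPEko* mice A to D. Mouse A was the highest of all 8, whereas the other 3 *Tra2b-cPEko* mice were below every wild type mouse. The log2 fold change was -0.04 (SE 0.05, edgeR adjusted p = 0.705, two-sided exact permutation p = 0.371), with a 95% interval of -10.1% to 4.51%. For 4 mice against 4 the smallest p this permutation test can give is 0.0286.

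*Cldn3* (chr5:135015068-135016326, plus strand), a claudin found in many epithelia and at newly formed junctions of the barrier, had few reads. It stood at 1.40, 1.35, 1.28 and 1.61 CPM in wild type mice A to D and at 1.88, 1.47, 11.7 and 1.80 CPM in *Tra2b-cPEko* mice A to D. *Tra2b-cPEko* mouse C had 547 reads on the gene, 6.21 times the CPM of the next mouse. The genotypes overlapped, since *Tra2b-cPEko* mouse B was below wild type mouse D. The log2 fold change was 1.59 (SE 0.78, edgeR adjusted p = 0.393, exact permutation p = 0.0571), a 3.0-fold difference with a 95% interval of 0.822 to 11. Without *Tra2b-cPEko* C it was 0.28 (SE 0.16), 1.22-fold, with an adjusted p of 0.563 in the same test, where the adjusted p over all alternatives ran from 0.343 to 0.577. *Wbscr25* lies on the other strand of *Cldn3* and had only 2 to 9 reads per library. How the counting treated reads of this overlap is not stated.

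**Figure D2:**
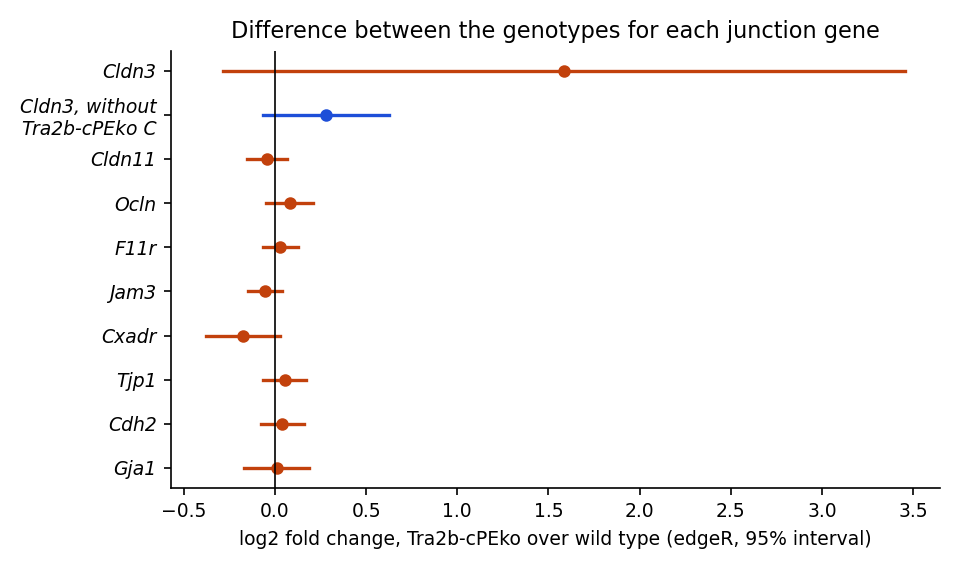
Log2 fold change, *Tra2b-cPEko* over wild type, of each junction gene with its 95% interval from edgeR's fit (4 mice per genotype), and of *Cldn3* without *Tra2b-cPEko* mouse C (blue). All intervals include 0, and the estimate for *Cldn3* goes from 1.59 to 0.28 without that mouse.

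*Ocln* encodes occludin, a membrane protein of tight junctions whose tail binds ZO proteins (chr13:100630334-100689535, minus strand). Its level was 62.0, 60.0, 71.9 and 62.1 CPM in wild type and 71.3, 64.1, 67.0 and 68.3 CPM in *Tra2b-cPEko* mice. All 4 *Tra2b-cPEko* mice were above 3 of the wild type mice, and wild type C was the highest of all. The log2 fold change of 0.08 (SE 0.06, 95% interval -3.31% to 15.7%) did not pass the test (edgeR adjusted p = 0.542, exact permutation p = 0.286).

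*F11r*, *Jam3* and *Cxadr* encode adhesion molecules of the immunoglobulin superfamily, namely JAM-A, JAM-C and the coxsackievirus and adenovirus receptor. *F11r* (chr1:171265092-171292958, plus strand) had 217, 211, 224 and 207 CPM in wild type and 229.5, 223, 215 and 209 CPM in *Tra2b-cPEko* mice, which overlapped throughout. The log2 fold change was 0.03 (SE 0.04, 95% interval -4.48% to 9.02%, edgeR adjusted p = 0.794, exact permutation p = 0.514).

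*Jam3* (chr9:27005652-27066915, minus strand) also acts between Sertoli cells and germ cells, where JAM-C is needed for spermatids to polarize. It had 125, 124, 123 and 127 CPM in wild type and 128, 120.1, 117 and 115 CPM in *Tra2b-cPEko* mice. The wild type values were close together, with a coefficient of variation of 1.24%, and 3 of 4 *Tra2b-cPEko* mice were below all of them. *Tra2b-cPEko* A was above all of them, and the log2 fold change of -0.05 (SE 0.04, 95% interval -9.58% to 2.84%) did not pass the test (edgeR adjusted p = 0.583, exact permutation p = 0.2). *Ncapd3* overlaps *Jam3* on the other strand, and how the counting used strand is not stated.

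*Cxadr* (chr16:78098377-78159153, plus strand) gave the largest negative estimate. Its level was 48.5, 46.8, 52.0 and 51.4 CPM in wild type and 38.5, 53.4, 39.7 and 44.7 CPM in *Tra2b-cPEko* mice. Mice A, C and D of the *Tra2b-cPEko* group were below every wild type mouse, and mouse B was above every one. The log2 fold change was -0.17 (SE 0.09, 95% interval -23.0% to 1.94%, edgeR adjusted p = 0.393, exact permutation p = 0.171). Without *Tra2b-cPEko* B it was -0.28 (SE 0.06), with an adjusted p of 0.0862 by edgeR (0.0862 to 0.655 over its alternatives) and of 0.00844 by DESeq2. This DESeq2 fit, chosen after seeing the data, was the only fit of those run that called a member. The share of all genes that it called is not given here. *Btg3*, at 51.0 to 61.3 CPM, overlaps *Cxadr* on the other strand, and transcripts of the 2 genes matched in the search for near-identical sequence. How reads of the overlap were counted is not stated.

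*Tjp1* encodes ZO-1, the cytoplasmic scaffold that links claudins and occludin to actin (chr7:64945898-65177529, minus strand). In GENCODE vM39 the gene overlaps 6 others, of which *Gm44794* and *Gm44792* are on its own strand. How reads of these overlaps were counted is not stated. The level of *Tjp1* was 263, 237, 291 and 264 CPM in wild type and 274, 277, 277 and 268 CPM in *Tra2b-cPEko* mice. The *Tra2b-cPEko* mice lay inside the range of the wild type mice and were closer together, with a coefficient of variation of 1.57% against 8.38%. Its log2 fold change was 0.05 (SE 0.06, 95% interval -4.43% to 12.7%, edgeR adjusted p = 0.673, exact permutation p = 0.457).

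*Cdh2* encodes N-cadherin, the adhesion molecule of the basal ectoplasmic specialization (chr18:16700793-16942381, minus strand). It had 94.1, 84.7, 95.7 and 99.7 CPM in wild type and 90.9, 99.3, 96.0 and 99.0 CPM in *Tra2b-cPEko* mice. Wild type B was the lowest and wild type D the highest, so the mutants lay inside the wild type range. Its log2 fold change was 0.04 (SE 0.05, 95% interval -5.09% to 11.6%, edgeR adjusted p = 0.753, exact permutation p = 0.571), and without wild type B it was -0.0026.

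*Gja1* encodes connexin 43, the main gap junction protein between Sertoli cells and between Sertoli cells and germ cells (chr10:56253241-56278609, plus strand). It had 304, 309.8, 387 and 315 CPM in wild type and 361, 301, 322 and 341 CPM in *Tra2b-cPEko* mice. Wild type C was high, and the groups overlapped. The log2 fold change was 0.01 (SE 0.08, 95% interval -11% to 14%, edgeR adjusted p = 0.968, exact permutation p = 0.914), and its sign changed when single mice were left out, with values from -0.04 to 0.10.

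Since Sertoli cells may differ in their share of the RNA, each member was also set against the mean log2 CPM of the 13 Sertoli markers in the same mouse. *Cldn11* was then -0.05 in *Tra2b-cPEko* relative to wild type on the log2 scale (exact permutation p = 0.257), *Ocln* 0.08 (exact permutation p = 0.2) and *Cxadr* -0.18 (exact permutation p = 0.229). *Cldn3* was at 0.96 (exact permutation p = 0.0571), with mouse C included. The other 5 genes were between -0.06 and 0.06, with exact permutation p from 0.171 to 0.971, and none of the 9 passed the test. The signs of *F11r*, *Cdh2* and *Gja1*, all close to 0, changed when single mice were left out. For 3 other genes the outcome of the test depended on single mice. *Cldn3* was at 0.26 without *Tra2b-cPEko* C (exact permutation p = 0.114) and at 1.24 without B (exact permutation p = 0.0286, the smallest that 4 mice against 3 allow). *Cxadr* was at -0.099 without *Tra2b-cPEko* A (exact permutation p = 0.429) and at -0.30 without B (exact permutation p = 0.0286). *Ocln* was at 0.046 without wild type B (exact permutation p = 0.371) and at 0.13 without wild type C (exact permutation p = 0.0286). For each p of 0.0286 the mouse left out was the one that made the genotypes overlap. The smallest p thus followed from the choice of mouse, made after seeing the data, and no conclusion is drawn from it.

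A wider list of 56 other junction genes was described in the same way, of which 55 passed the filter on low counts. None was called, and 5 of them had an unadjusted p under 0.05 (9.09%, against 15.3% of all genes). For 1 of the 55, *Magi1*, the genotypes did not overlap, against 8.54% of all genes. It was lower in *Tra2b-cPEko* mice (log2 fold change -0.08, edgeR adjusted p = 0.416). The gene that did not pass the filter was *Cldn10*, with only 2 to 12 reads per library. Its CPM was 0.045 to 0.095 in wild type and 0.163 to 0.257 in *Tra2b-cPEko* mice, without overlap. The median log2 fold change of the 55 was 0.03, with 35 positive and 20 negative values. By role, the gene nearest to a call was one of the actin regulators of the ectoplasmic specialization. This was *Espn*, an actin-bundling protein of these structures, with 211 ± 26.2 CPM in wild type and 259 ± 23.1 CPM in *Tra2b-cPEko* mice (SD, n = 4), a log2 fold change of 0.29 (SE 0.09, edgeR adjusted p = 0.198, DESeq2 0.0504). *Flna*, the highest of them in CPM uncorrected for length, was at 0.09 (edgeR adjusted p = 0.62).

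Among the scaffolds, *Cgn*, encoding cingulin of the tight junction plaque, was at 0.11 (SE 0.05, edgeR adjusted p = 0.305), with 468 ± 15.6 against 505 ± 28.8 CPM. Among cadherin partners, *Ctnnb1*, encoding beta-catenin, had the highest CPM, uncorrected for length, at 802 ± 24.3 and 801 ± 16.7 CPM, and *Vcl*, encoding vinculin, was at 0.10 (edgeR adjusted p = 0.454). Of the 6 gap junction genes, *Gja6* had the largest estimate, 0.29 (edgeR adjusted p = 0.312), *Gjb2*, encoding connexin 26, was at -0.24 (SE 0.10, edgeR adjusted p = 0.288) and *Gjc1* at -0.09 (edgeR adjusted p = 0.366). Of the immunoglobulin-type adhesion molecules, *Cadm1* was at 0.03 and *Nectin3* at -0.11 (edgeR adjusted p = 0.342). *Lsr*, the tricellular junction protein angulin-1 and the highest in CPM, uncorrected for length, of the other tight junction membrane proteins, was at 0.01. *Marveld3*, of the occludin family, was at 1.0 with 4 to 39 reads per library (edgeR adjusted p = 0.318) and at 0.51 without *Tra2b-cPEko* C. Of the desmosome genes, *Dsg2* was at 1.14 (edgeR adjusted p = 0.384), and at 0.24 without the same mouse, and *Pkp2* was at 0.08.

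**Figure D3:**
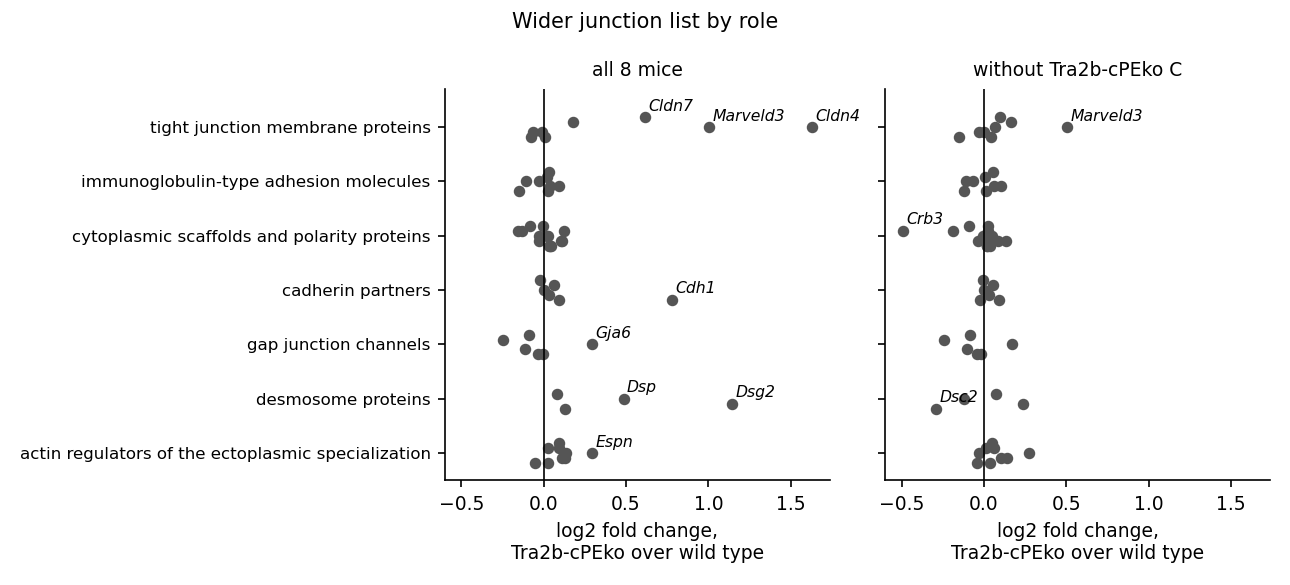
Log2 fold change, *Tra2b-cPEko* over wild type, of the 55 tested genes of the wider junction list by role (1 point per gene), for all 8 mice (left) and without *Tra2b-cPEko* mouse C (right). Points beyond 0.28 are named. *Cldn4*, *Cldn7*, *Cdh1*, *Dsg2* and *Dsp* are far to the right only with that mouse.

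*Tra2b-cPEko* mouse C, the one with the high *Cldn3*, also stood apart in other epithelial genes. Of the genes of at least 1 CPM in it, 114 were over 5 times the highest other mouse, against 0 to 3 in each of the others. Among the 9 members only *Cldn3* was more than 1.5 times the next mouse there, and among the 56 wider genes 6 were, namely *Cldn4*, *Cldn7*, *Marveld3*, *Cdh1*, *Dsg2* and *Dsp*. *Cdh1*, encoding E-cadherin, was at 18.1 CPM against 4.00 to 5.79 CPM, and *Cldn4* at 4.21 CPM against 0.37 to 0.64 CPM. *Dsg2* was at 4.47 CPM against 0.78 to 1.09 CPM, and *Cldn7* at 9.83 CPM against 2.71 to 4.39 CPM. Over all genes tested, 1.41% were that far above the next mouse in this mouse and 0.0314 to 0.194% in each of the others.

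The marker list for epididymal and other columnar epithelium was highest in this mouse as well. Its 9 genes had a summed level of 59.2 to 64.9 CPM in wild type and 55.7 to 69.0 CPM in *Tra2b-cPEko* A, B and D, and 138 CPM in C, and each of the 9 was highest in C. *Ehf*, an epithelial transcription factor, was at 12.1 CPM against at most 0.46 CPM elsewhere, and *Krt19* at 8.59 CPM. *Lcn5*, an epididymal lipocalin, had no count in any wild type library, where 3 counts would be 0.0508 to 0.0709 CPM, and was at 7.12 CPM in C. *Krt7* was also above every wild type mouse in the other *Tra2b-cPEko* mice, with 0.272 to 3.83 CPM over all 4 against 0.189 to 0.249 CPM. Its log2 fold change was 2.85 (edgeR adjusted p = 0.201, DESeq2 0.00107) and at least 1.83 with any 1 mouse left out, and that of *Krt19* was 2.65 (edgeR adjusted p = 0.275, DESeq2 0.0587) and at least 1.16. The part of these markers in the level of *Cldn3* was not tested. No gene of the lists for Sertoli, Leydig, peritubular, endothelial, germ cells or macrophages was more than 1.5 times the next mouse in C.

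**Figure D4:**
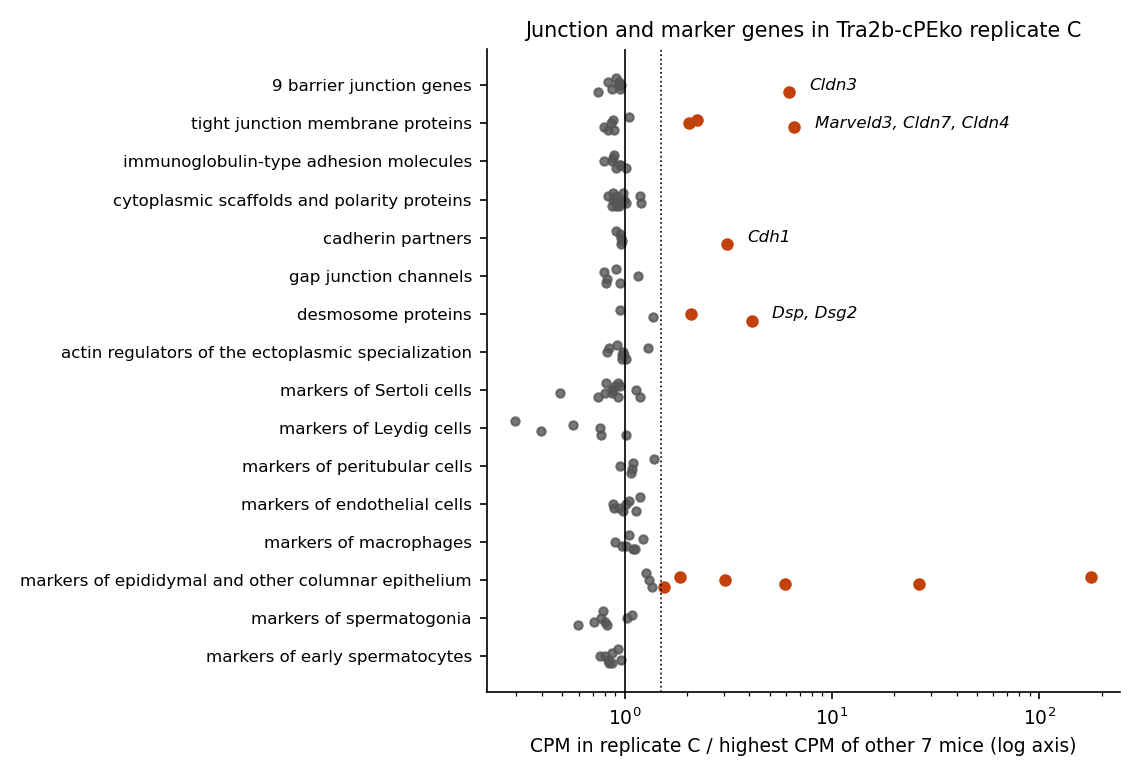
CPM in *Tra2b-cPEko* mouse C divided by the highest CPM of the other 7 mice (logarithmic axis) for the junction genes and each marker list, 1 point per gene. Orange points are over 1.5, and the dotted line marks that value. *Cldn3*, 6 of the wider junction genes and 6 of the 9 epithelial markers lie beyond it.

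Across the 8 mice the 9 genes did not move as a block. Of the 36 pairs, the median Pearson correlation of log2 CPM was 0.06, and the range was -0.63 (*Cldn3* and *Cxadr*) to 0.89. The pairs above 0.7 were *Ocln* with *Gja1* (r = 0.89, Spearman's rho 0.83, and r = 0.91 without the 2 mice farthest from the median of *Ocln*), *Cldn11* with *Jam3* (r = 0.87, rho 0.86, and 0.87) and *Ocln* with *Tjp1* (r = 0.78, rho 0.79, and 0.54). Within genotypes, after subtraction of the genotype means, they were 0.97, 0.86 and 0.75. The points share the scaling to each library, and these 3 were picked as the highest of the 36.

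**Figure D5:**
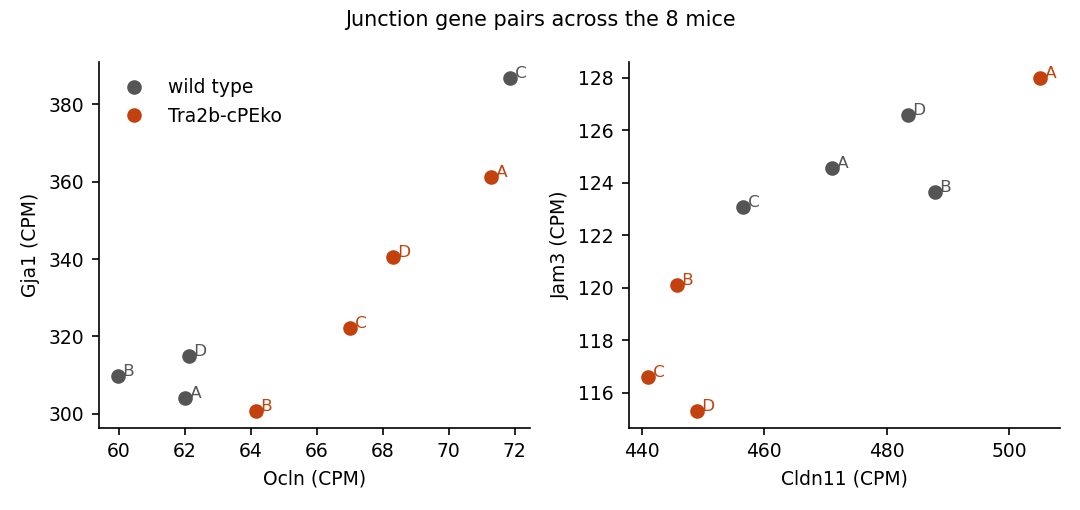
CPM of *Gja1* against *Ocln* (left) and of *Jam3* against *Cldn11* (right) in each of the 8 mice, with the letters of wild type (grey) and *Tra2b-cPEko* (orange) mice. The genotypes are mixed in the left panel, while in the right panel *Tra2b-cPEko* B, C and D are lowest and A is highest.

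The gene outside the list whose log2 CPM over the 8 mice was most like the mean z score of the 9 genes was *Slc38a2* (r = 0.96), followed by *Ikzf1* and *Rfwd3* (r = 0.94 each) and by *Nlgn3* and *Fastkd5* (r = 0.93 each), of 15468 genes compared. For the single members these were *Prom2* for *Cldn3* (r = 0.998), *Lsm12* for *Cldn11* (r = 0.97), *Pygb* for *Ocln* (r = 0.98), *Gm39529* for *F11r* (r = 0.95), *Bin3* for *Jam3* (r = 0.97), *Gnb4* for *Cxadr* (r = 0.97), *B4galt1* for *Tjp1* (r = 0.99), *Nkd2* for *Cdh2* (r = 0.98) and *Abhd3* for *Gja1* (r = 0.97). Each is the highest of the correlations with 15476 genes over 8 mice, and no test was made of them. *Prom2* was at 27.8 CPM in *Tra2b-cPEko* C and at most 1.04 CPM in the others, so its likeness to *Cldn3* rests on that mouse.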

How the data were processed

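RNA from whole testes was sequenced from stranded mRNA libraries, and the authors deposited raw counts per gene, 1 table per mouse, with no normalization. Per the labels, the processing notes of the submitters name HISAT2 2.2.1, SAMtools 1.7.1, HTSeq 2.0.2 and deepTools 3.5.1 and the build GRCm39, while the study's methods name Salmon. The tables close with 5 summary lines of the HTSeq form, which were left out, and between 66.4% and 69.0% of the reads were on genes. Whether the counting used strand is not stated, which makes genes that overlap on opposite strands uncertain.

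Counts were fitted in R 4.3.3 with edgeR 4.0.16 (filterByExpr with a least count of 10 and a least total of 15, TMM factors, robust quasi-likelihood fit) with genotype as the only term, and adjusted over all genes tested. DESeq2 1.42.0, which the study used, limma 3.58.1 (voom), factors by RLE or by the upper quartile, fits with no filter or with a filter at a mean count of 50, a threshold of 0.1, the replicate letter as a block and fits without each mouse were alternatives. Single genes were also tested on log2 CPM (prior count 2) with two-sided exact permutation tests over 70 arrangements of the mice.

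The members and gene lists were chosen with earlier results of these data known. Named genes are the 9 members; in each role of the wider list, the gene with the highest CPM and that with the smallest p; and the genes with the highest correlations. Genes high in *Tra2b-cPEko* C, *Gja6*, *Eps8*, *Magi1*, *Cldn10* and the marker genes were named after their values were seen. The mice were independent per the study's methods, the labels give no batch, and no 2 libraries of the same genotype were copies, since the chi-square between libraries of a genotype was 6.24 to 19.1 per degree of freedom, where counting error alone gives about 1. Positions and exon lengths are from GENCODE vM39, near-identical transcripts were searched with BLAST+ 2.17.0, and figures were drawn in Python 3.11.15 with matplotlib 3.10.9. The search matched *Wbscr25* to *Cldn3*, *Gm48796* to *Jam3*, *Btg3* to *Cxadr* and *Gm68148* to *Gja1*. Each of these overlaps its member on the other strand. Of the marker lists, Sertoli (13), Leydig (6), peritubular (5), endothelial (8), macrophage (7), columnar epithelium (9) and early spermatocyte (8) genes had no call by edgeR. Of the 9 columnar epithelium genes only 6 passed the filter on low counts and were tested by edgeR. Of 8 spermatogonial genes 1, *Sohlh1*, was called lower. DESeq2 called *Lhcgr*, *Csf1r*, *Cx3cr1*, *Krt7* and *Sohlh1* of these lists. At an unadjusted p under 0.05 these lists held 2, 1, 1, 0, 5, 2 and 0 genes.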

Additional observations from a re-analysis of the deposited data

Results flagged for a closer look

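In 3 of the 22 sets of 4 mice examined (each member, *Tra2b* and *Tra2a*, in each genotype), 1 mouse lay far from the other 3, with a gap to its nearest neighbour over the whole range above Dixon's 95% critical value for 4 values. Chance would do this in about 1 set of 20. *Cldn3* in *Tra2b-cPEko* C was at 11.7 CPM, and the nearest mouse was at 1.88 CPM (ratio 0.960). *Cldn11* in *Tra2b-cPEko* A was at 505 CPM, and the nearest was at 449 CPM (ratio 0.874). *Gja1* in wild type C was at 387 CPM, and the nearest was at 315 CPM (ratio 0.869).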

How the results depend on the processing

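At a threshold of 0.05 the number of members called and of wider junction genes called was 0 in every edgeR and limma fit run. It was also 0 with the replicate block (0 members, 0 wider genes) and in DESeq2 with all 8 mice. At a threshold of 0.1 it was 0 in the main edgeR fit. Under 0.1 were *Cxadr* by edgeR without *Tra2b-cPEko* B (0.0862), *Eps8* by edgeR with a mouse left out (0.0944 at the lowest) and *Espn* by DESeq2 with all 8 mice (0.0504). Over 134 member values from the alternative edgeR and limma fits and DESeq2 with all 8 mice, the adjusted p ran from 0.0862 to 0.991. Of these values 6 had the opposite sign, all with a mouse left out: *Gja1* ranged from -0.036 to 0.095 and *Cdh2* from -0.0026 to 0.070. DESeq2 gave *Cldn3* neither a p nor an adjusted p with all 8 mice, and an adjusted p of 0.817 without *Tra2b-cPEko* C. In DESeq2 fits without a mouse, chosen after seeing the data, *Cxadr* was called without *Tra2b-cPEko* B (0.00844). Of the wider list, *Espn* was called without wild type B, wild type D or *Tra2b-cPEko* B (0.0273, 0.0195 and 0.00678). *Gja6* was called without *Tra2b-cPEko* B (0.0456), and *Vcl* and *Eps8* without wild type C (0.0414 and 0.0359). The cause was not tested. With all 8 mice DESeq2 called 2.79% of all genes. Its share in the fits without a mouse is not given here, so these calls cannot be set against a background. *Ctnnb1* went to 0.018 with upper-quartile factors and 0.0019 with the stricter filter, and ranged from -0.020 to 0.012 without single mice, and *Lsr* from -0.023 to 0.040. Relative to Sertoli markers, leaving out mice gave 0.26 to 1.24 for *Cldn3*, 0.046 to 0.13 for *Ocln*, -0.30 to -0.099 for *Cxadr*, -0.0017 to 0.059 for *F11r*, -0.010 to 0.095 for *Cdh2* and -0.019 to 0.083 for *Gja1*. Without *Amh*, *Inha* and *Rhox5* among the markers, *F11r* was at -0.012 and *Gja1* at -0.027. Over all genes, 30 were called by edgeR, against 507 by DESeq2, 58 with upper-quartile factors, 123 with no filter, 14 with the stricter filter, 11 by limma-voom, 67 with the replicate block and 3 to 84 without single mice. The labels do not say whether the letters A to D pair mice across the genotypes. The deviations of same-lettered mice from their group means correlated at 0.02, -0.19, -0.03 and 0.22 over 15477 genes. Those of mice with different letters correlated at -0.14 to 0.21. Whether same-lettered mice share anything beyond the letter was not tested. Only 4 mice per genotype limit the precision, and for *Cldn3* so do its 54 to 95 reads in all libraries but 1.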
